A study of Mus musculus with 6 samples.

Results

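The genes described here encode 10 ion channels known from microglia, the resident macrophages of the brain. They were chosen by symbol from the 41079 genes of the count and FPKM tables. The list holds 5 potassium channels (Kcnk13, Kcnk6, Kcnj2, Kcna3 and Kcnn4), the proton channel Hvcn1 and 4 transient receptor potential (TRP) channels (Trpv2, Trpv4, Trpm2 and Trpm7). All 10 were measured in all 6 libraries, and all 10 passed the filter on low counts.

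The study asked whether signals of the brain environment help cultured microglia to keep their resting gene expression. Microglia were taken from brains of C57Bl/6N mice aged 1 to 3 days and grown in mixed glial flasks that pool several brains. The flasks were fed with L-929 conditioned medium. By the study's protocol, microglia were collected from them by shaking at repeated harvests, weeks after isolation. Control cells (3 libraries) were kept in DMEM/F12 without serum. Cells of the optimized condition (3 libraries) received human TGFbeta, human IL34 and CX3CL1 at 100 ng/mL each. By the study's methods the CX3CL1 was human too, and these cells also received cholesterol, insulin-transferrin-selenium and a collagen IV coating. The shares of the single supplements in any difference cannot be told apart with these 2 groups. The glial flasks were kept in medium with serum, and all cells were also seeded in it before the change to medium without serum, and no freshly isolated microglia were among these 6 libraries. The study describes the replicates as biological, but neither it nor the labels tie a library to a flask or harvest, so p-values measure the spread between these libraries.

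Microglia rest at a negative membrane potential that depends on potassium leaving the cell. Two-pore channels give a steady leak, inward rectifiers hold the potential near its resting value, and voltage-gated and calcium-activated channels open on depolarization or when calcium rises. The proton channel removes the acid and charge that the NADPH oxidase leaves behind when it makes superoxide. TRP channels let in calcium and other cations in response to stretch, osmotic change, heat, oxidants or a fall in magnesium. Potassium outflow is also a known trigger of the NLRP3 inflammasome, which releases interleukin-1beta.

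The libraries held 20628148 to 27261839 counts. The 10 microglia markers summed to between 9561 and 10524 CPM (counts scaled to the size of the library, here after TMM scaling) in control and between 14131 and 18795 in optimized libraries, where 5 of them rose (among them Tmem119, Cx3cr1 and Trem2) and 2 fell (Aif1 and Csf1r). By the test described below, 70% of these markers were called, beside 29.8% of all tested genes. Markers of other cells were low: astrocyte markers summed to 36.9 to 38.6 CPM in control and 24.8 to 29.8 CPM in optimized libraries, neuron markers to 3.07 to 4.72 and 5.29 to 6.33 CPM, oligodendrocyte lineage markers to 131 to 148 and 164 to 199 CPM, and fibroblast and pericyte markers to 19.4 to 25.5 and 19.9 to 76.9 CPM. Among the astrocyte markers only Aldh1l1 passed the test described below (16.5 CPM in control, 4.64 CPM in optimized on average). Nefl was the only neuron marker called, and it rose from low counts (0.227 CPM in control, 1.14 CPM in optimized on average). Mbp was the only oligodendrocyte lineage marker called, and it rose as well (94.2 CPM in control, 119 CPM in optimized on average). The fibroblast and pericyte sum was 35.1, 19.9 and 76.9 CPM in optimized replicates 1 to 3. The endothelial sum went from between 77.9 and 94.2 to between 270 and 348 CPM through Flt1 (83.0 CPM in control, 298 CPM in optimized on average), while the other markers of that list stayed near 0. No marker of these lists was at 0 in all libraries, and the part of other cells in the channel values was not tested. In such bulk samples, fewer cells of a type and less RNA per cell cannot be told apart.

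The regions before annotated starts of 4 of the 5 channel genes that were called are shown here, so that the letters beside these genes can be seen. Which starts the cells used was not measured. RefSeq start sites were found for 8 of the 10 genes. Each window holds the 250 bases before the start, 5′ to 3′ on the gene's own strand, and was located in GRCm39. Capitals mark matches, on either strand, to the letters of 5 motifs: GAGGAAGT (PU.1, the factor that specifies myeloid cells), CAGAC (the SMAD proteins that carry TGFbeta signals), TGACTCA (AP-1), TATAAA (the core promoter element bound by TBP) and CACGTG (E-box).
Kcna3: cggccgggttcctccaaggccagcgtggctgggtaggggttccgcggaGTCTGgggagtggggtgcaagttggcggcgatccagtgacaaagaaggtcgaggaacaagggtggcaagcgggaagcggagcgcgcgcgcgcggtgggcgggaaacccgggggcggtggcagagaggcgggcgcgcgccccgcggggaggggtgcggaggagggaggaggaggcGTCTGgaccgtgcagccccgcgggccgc
Kcnj2: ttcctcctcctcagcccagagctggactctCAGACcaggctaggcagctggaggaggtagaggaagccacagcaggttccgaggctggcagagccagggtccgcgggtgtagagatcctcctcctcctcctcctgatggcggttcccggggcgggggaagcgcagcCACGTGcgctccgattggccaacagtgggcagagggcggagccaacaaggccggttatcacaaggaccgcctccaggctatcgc
Trpm2: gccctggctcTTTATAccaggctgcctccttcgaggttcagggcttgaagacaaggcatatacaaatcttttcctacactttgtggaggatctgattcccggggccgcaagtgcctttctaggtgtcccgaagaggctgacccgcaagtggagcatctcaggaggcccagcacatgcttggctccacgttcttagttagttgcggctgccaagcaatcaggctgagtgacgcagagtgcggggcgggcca
Trpv2: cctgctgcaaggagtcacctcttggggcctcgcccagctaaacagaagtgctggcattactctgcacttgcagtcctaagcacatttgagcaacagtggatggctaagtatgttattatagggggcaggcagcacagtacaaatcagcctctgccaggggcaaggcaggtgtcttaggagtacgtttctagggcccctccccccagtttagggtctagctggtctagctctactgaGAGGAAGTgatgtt
The Kcna3 window (chr3:106943228-106943477, plus strand) had 74.4% G and C and 31 CpG dinucleotides, against a median of 52.4% and 6 over all 32851 RefSeq windows of this length, and stood at the 95.8th percentile for G and C. It held GTCTG, the reverse strand form of CAGAC, at bases 202 to 198 and 28 to 24 before the start. The Kcnj2 window (chr11:110956740-110956989, plus strand; 65.6% G and C) held CAGAC at bases 220 to 216 and CACGTG at bases 84 to 79 before the start. The Trpm2 window (chr10:77805707-77805956, minus strand; 56.8% G and C) held TTTATA, the reverse strand form of TATAAA, at bases 240 to 235 before the start. The first of 3 Trpv2 starts (chr11:62465062-62465311, plus strand; 53.2% G and C) held GAGGAAGT at bases 14 to 7 before the start. CAGAC is in 42.2% of all windows, TATAAA in 12.4%, CACGTG in 6.02%, TGACTCA in 4.46% and GAGGAAGT in 2.44%, so a match to the SMAD letters is common. The Kcnk13 window is not printed because 91 of its bases lie in exons of the gene in GENCODE M39, and it held the SMAD letters at bases 65 to 61 and 18 to 14 before the start. Trpm7 and Kcnn4, which did not pass the test described below, also held both the SMAD letters and CACGTG in their windows. All 250 bases of the Kcnn4 window lie in exons of that gene. A match describes the letters alone.

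Of the 10 channel genes, 2 rose under optimized conditions (Kcna3 and Kcnk13), 3 fell (Trpm2, Kcnj2 and Trpv2) and 5 did not pass the test (Trpv4, Hvcn1, Kcnk6, Kcnn4 and Trpm7). Calls rest on the quasi-likelihood test of edgeR at an adjusted p under 0.05, with the adjustment of Benjamini and Hochberg made across all 14618 genes that were tested. By the same test 29.8% of all tested genes were called, 14.7% as higher and 15.2% as lower, which is the background for these counts. The median log2 fold change of the 10 genes was -0.03, and that of all tested genes was 0.01. The scaled CPM values of the groups did not overlap for 6 of the 10 genes (the 5 called genes and Trpv4), as for 43.9% of all tested genes. Levels are given below as FPKM, which accounts for gene length but not for the TMM scaling. Scaling by library size alone moved the median log2 fold change of all genes to -0.12 and the share of higher calls from 49.1% to 32.3%, and the FPKM values are on that unscaled footing. Fold changes and CPM values carry the TMM scaling.

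**Figure D1:**
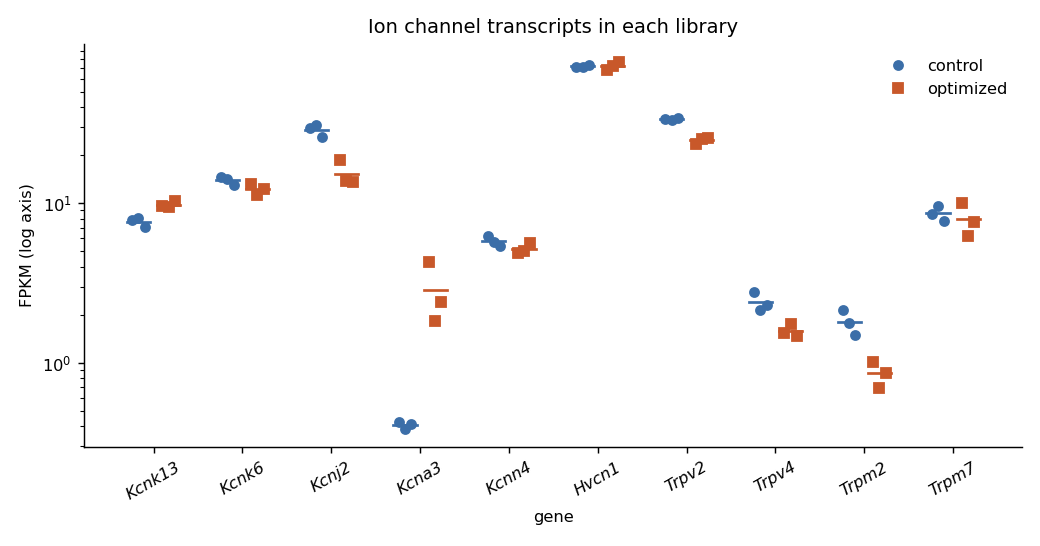
FPKM (log axis) of the 10 ion channel genes in each of the 6 libraries, with circles for control, squares for optimized and a bar at each group mean. Kcna3 shows the widest gap between the groups, from a mean of 0.406 to 2.84 FPKM, while the Hvcn1 points lie between 67.8 and 76.2 FPKM in both groups.

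Kcnk13 encodes THIK-1, the two-pore channel that gives microglia their steady potassium leak and that supports surveillance by their processes. It rose under optimized conditions. It was at 7.86, 8.02 and 7.10 FPKM in control replicates 1 to 3 and at 9.62, 9.38 and 10.4 FPKM in optimized replicates 1 to 3. All 3 optimized libraries were above all 3 control libraries. In scaled counts it went from 45.9 ± 1.31 CPM to 64.6 ± 3.00 CPM (± SD over 3 libraries per group), a log2 fold change of 0.49 (SE 0.08, adjusted p = 0.0012), or 1.41-fold. The gene lies on chromosome 12 at 99924948 to 100028942 of the plus strand in GRCm39.

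Kcnk6 encodes TWIK-2, a second two-pore channel, known in macrophages as a route of potassium outflow ahead of NLRP3 activation. It did not pass the test. It was at 14.5, 14.1 and 13.0 FPKM in control and at 13.1, 11.2 and 12.3 FPKM in optimized libraries, so that the groups met at their edges. On the scaled counts the values were 55.8 ± 1.24 CPM and 53.9 ± 2.08 CPM (± SD over 3 libraries per group), with a log2 fold change of -0.05 and a 95% interval from -0.23 to 0.13 (adjusted p = 0.70). Kcnk6 (chromosome 7, 28921346 to 28932035, minus strand) was the steadier of the two-pore genes. The ratio of Kcnk13 to Kcnk6 within a library, in FPKM, was 0.552 ± 0.0132 in control and 0.805 ± 0.0604 in optimized libraries (± SD over 3 libraries per group). It was above 0.73 in each optimized library and below 0.57 in each control library.

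Kcnj2 encodes Kir2.1, the inward rectifier of resting cultured microglia. It fell under optimized conditions. It was at 29.5, 30.7 and 25.8 FPKM in control and at 18.7, 13.7 and 13.5 FPKM in optimized libraries. The groups did not overlap, and optimized replicate 1 was the highest of its group. The scaled level went from 154 ± 8.43 to 90.0 ± 14.7 CPM (± SD over 3 libraries per group), with a log2 fold change of -0.77 (SE 0.12, adjusted p = 0.0007). Kcnj2 lies on chromosome 11 at 110956981 to 110967665 of the plus strand.

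Kcna3 encodes Kv1.3, the voltage-gated channel that carries an outward current in microglia and T cells when they depolarize. It rose most among the 10 genes. Its raw count was 35, 34 and 43 in the control libraries but 356, 183 and 197 in the optimized ones. In FPKM this was 0.424, 0.386 and 0.410 against 4.30, 1.83 and 2.38. Every optimized library was above every control library, and optimized replicate 1 stood well above the other two of its group. The log2 fold change was 2.92 (SE 0.30, 95% interval 2.25 to 3.59, adjusted p = 5.4e-05), or 7.57-fold, and 2.53 without optimized replicate 1. The coefficient of variation of the scaled level was 6.54% in control and 42.2% in optimized libraries, the widest spread of any of the 10 genes in either group. GENCODE M39 gives Kcna3 a single exon on chromosome 3 at 106943485 to 106945386 (plus strand), a model of 1902 bases. The FPKM values correspond to a longer model of about 3859 bases, so the annotation behind the counts reached further than this exon. An antisense long non-coding RNA, Gm56792, shares 524 exon bases with Kcna3 and was not analysed here as a gene of its own.

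Kcnn4 encodes KCa3.1, a potassium channel that calcium opens through bound calmodulin. It did not pass the test. It was at 6.20, 5.68 and 5.40 FPKM in control and at 4.88, 4.98 and 5.62 FPKM in optimized libraries, with overlapping groups. The scaled levels were 11.2 ± 0.557 and 11.1 ± 0.890 CPM (± SD over 3 libraries per group), with a log2 fold change of -0.02 and a 95% interval from -0.28 to 0.24 (adjusted p = 0.93). Kcnn4 and Kcnk6 both lie on chromosome 7, with Kcnn4 at 24066915 to 24086115 of the plus strand.

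Set against each other, the 5 potassium channel transcripts shifted in make-up. Of their summed FPKM, Kcnj2 held 50.8% ± 1.16 in control and 33.6% ± 3.21 in optimized libraries, Kcnk13 13.6% ± 0.143 and 21.8% ± 2.39, and Kcna3 0.724% ± 0.0691 and 6.12% ± 2.12 (± SD over 3 libraries per group). Kcnk6 held 24.6% ± 0.596 and 27.0% ± 1.03, and Kcnn4 10.2% ± 0.522 and 11.5% ± 1.62. The order of the 5 shares, from Kcnj2 through Kcnk6, Kcnk13 and Kcnn4 to Kcna3, was the same in both group means. The ratio of Kcna3 to Kcnj2 within a library went from 0.0143 ± 0.00167 to 0.180 ± 0.0484, and that of Kcnn4 to Kcna3 from 14.2 ± 0.865 to 2.07 ± 0.828 (± SD over 3 libraries per group). Shares and ratios within a library do not depend on its scaling, but they describe transcripts and not currents. The differences between libraries by gene length that are given below need not cancel in them, and their part was not tested.

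**Figure D2:**
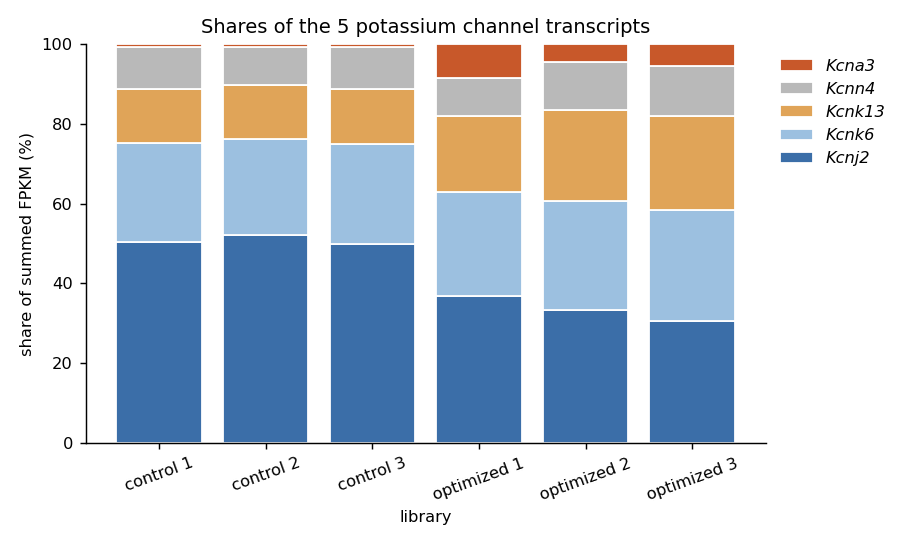
Share of the summed FPKM (percent) that each of the 5 potassium channel genes held in each library. The Kcnj2 block shrinks from between 49.9% and 52.1% in the control libraries to between 30.5% and 36.9% in the optimized libraries, while the Kcnk13 and Kcna3 blocks widen.

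Hvcn1 encodes Hv1, the voltage-gated proton channel that lets protons out while the NADPH oxidase moves electrons across the membrane. Its level was the highest of the 10 genes in both conditions, and it did not pass the test. It was at 71.4, 71.6 and 72.9 FPKM in control and at 67.8, 72.1 and 76.2 FPKM in optimized libraries, and the control values lay within the optimized range. The log2 fold change was 0.14 with a 95% interval from -0.06 to 0.34 (adjusted p = 0.29). The reads of this gene are uncertain. Hvcn1 (chromosome 5, 122344867 to 122382736, plus strand) shares 2609 exon bases in GENCODE M39 with Tctn1 on the opposite strand. Tctn1, a gene of the ciliary transition zone, was counted 4045, 4241 and 5399 times in the control libraries and 4039, 4997 and 4491 times in the optimized ones. The ratio of Tctn1 to Hvcn1 counts stayed between 0.744 and 0.796 in all 6 libraries. Whether counting used strand is not given in the sources used here, and without it the reads of the 2 genes cannot be told apart, so the rank of Hvcn1 is that of the counted region.

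Hvcn1 and the oxidase subunit Cybb, the electron carrier of the phagocyte NADPH oxidase, had different changes. Cybb went from 529, 538 and 513 FPKM in control to 173, 121 and 159 FPKM in optimized libraries. Its log2 fold change was -1.67 (SE 0.12, adjusted p = 5.4e-06). The ratio of Hvcn1 to Cybb FPKM within a library was 0.137 ± 0.00479 in control and 0.489 ± 0.103 in optimized libraries (± SD over 3 libraries per group), and every optimized library was above every control library.

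Trpv2 encodes a calcium-permeable channel with a known part in phagocytosis by macrophages. It fell slightly under optimized conditions. It was at 33.7, 33.2 and 34.2 FPKM in control and at 23.5, 25.3 and 25.7 FPKM in optimized libraries, with no overlap. The scaled level went from 111 ± 5.70 to 90.6 ± 7.11 CPM (± SD over 3 libraries per group), a log2 fold change of -0.30 (SE 0.09, adjusted p = 0.030). This call did not hold when control replicate 1 (adjusted p = 0.075), control replicate 2 (adjusted p = 0.068), control replicate 3 (adjusted p = 0.12) or optimized replicate 3 (adjusted p = 0.082) was left out in edgeR, with log2 fold changes between -0.36 and -0.24 over the 6 fits with 1 library left out. Trpv2 lies on chromosome 11 at 62465304 to 62491341 of the plus strand.

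Trpv4 encodes a channel opened by cell swelling and warmth. It did not pass the test, although its groups did not overlap. It was at 2.79, 2.14 and 2.30 FPKM in control and at 1.54, 1.74 and 1.48 FPKM in optimized libraries. The raw counts were low, at 206, 169 and 216 against 114, 155 and 109. The log2 fold change was -0.46 (SE 0.16, 95% interval -0.82 to -0.10, adjusted p = 0.056). It was called in 5 of 15 alternative fits, among them scaling by library size alone (adjusted p = 0.017) and the fit without optimized replicate 2 (adjusted p = 0.030). Trpv4 (chromosome 5, 114760209 to 114796914, minus strand) is on the same chromosome as Hvcn1.

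Trpm2 encodes a cation channel that ADP-ribose opens under oxidative stress. It fell under optimized conditions. It was at 2.15, 1.77 and 1.48 FPKM in control and at 1.01, 0.697 and 0.861 FPKM in optimized libraries. The groups did not overlap, and replicate 1 was the highest of its group in both. The scaled level went from 17.1 ± 2.73 to 8.95 ± 1.31 CPM (± SD over 3 libraries per group), a log2 fold change of -0.93 (SE 0.15, adjusted p = 0.0012), or 0.524-fold. Trpm2 spans 77743556 to 77806405 of chromosome 10 on the minus strand. Its exons share 44 and 47 bases with 2 small nucleolar RNAs on the same strand, Gm22394 and Gm22871, whose mean counts were 8.18% and 8.84% of those of Trpm2. The antisense long non-coding RNAs Gm66732 and Gm68089 share 584 and 252 exon bases with Trpm2 and were not analysed here as genes of their own.

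Trpm7 encodes a channel fused to a kinase, which carries magnesium and calcium in nearly every cell. It did not pass the test. It was at 8.51, 9.60 and 7.73 FPKM in control and at 10.05, 6.21 and 7.58 FPKM in optimized libraries, so that the optimized group held both the highest and the lowest library. The log2 fold change was 0.02 with a 95% interval from -0.30 to 0.33 (adjusted p = 0.94). The ratio of Trpm2 to Trpm7 FPKM within a library was 0.209 ± 0.0375 in control and 0.109 ± 0.00698 in optimized libraries (± SD over 3 libraries per group). The coefficient of variation of Trpm7 was 8.05% in control and 20.8% in optimized libraries. Trpm7 spans 126633480 to 126718182 of chromosome 2 on the minus strand. An unnamed protein-coding gene on the same strand shares 387 exon bases with Trpm7 in GENCODE M39 and was not analysed here.

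**Figure D3:**
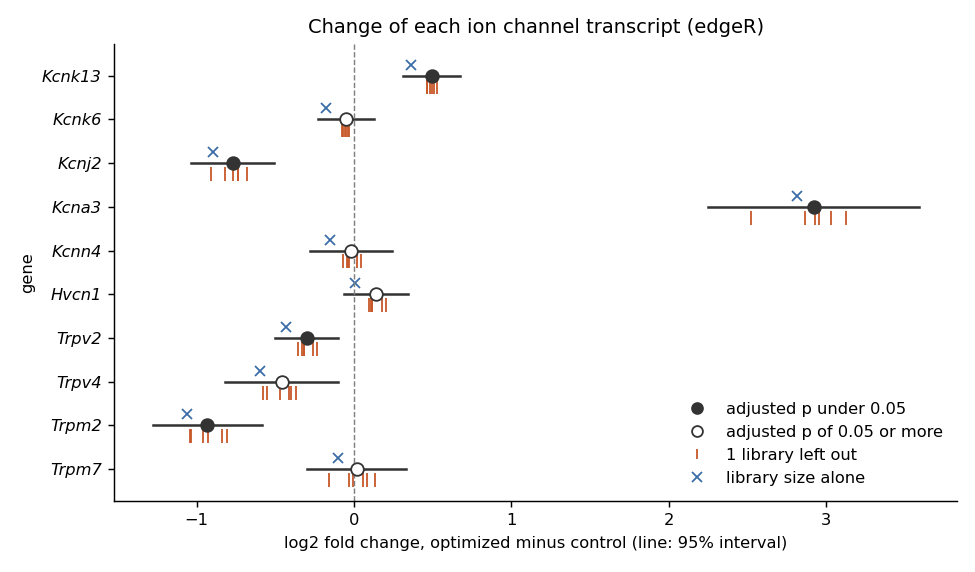
Log2 fold change, optimized minus control, of each channel gene with its 95% interval, filled where the adjusted p was under 0.05. Orange ticks give the value with 1 library left out, which for Kcna3 ran from 2.53 to 3.13, and blue crosses give scaling by library size alone.

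Optimized replicate 1 differed from the other libraries of its group by gene length. Its scaled counts stood at a median log2 ratio of -0.23 to the other two for the shortest of 3 equal classes of genes by length, -0.05 for the middle class and 0.18 for the longest. Optimized replicate 2 went the other way, with 0.16 for the shortest and -0.16 for the longest class, and the control libraries lay between -0.09 and 0.09 in every class. Kcnk13, Kcnj2, Trpm2 and Trpm7 are in the longest class, Kcnn4 in the shortest and the other 5 in the middle. Against the mean of optimized replicates 2 and 3, optimized replicate 1 was higher by 0.96 on the log2 scale for Kcna3, 0.47 for Trpm7, 0.38 for Kcnj2 and 0.31 for Trpm2, and stood at -0.11 for Kcnk13 and -0.20 for Hvcn1. The part of this length pattern in the single values was not tested. Without optimized replicate 1, Kcnk13, Kcnj2, Kcna3, Trpv2 and Trpm2 were all still called.

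By level per gene length, the order in control was Hvcn1 (72.0 FPKM), Trpv2 (33.7), Kcnj2 (28.7), Kcnk6 (13.9), Trpm7 (8.61), Kcnk13 (7.66), Kcnn4 (5.76), Trpv4 (2.41), Trpm2 (1.80) and Kcna3 (0.406). The ranges of Trpm7 and Kcnk13 overlapped, as did those of Trpv4 and Trpm2, so neither pair is ordered beyond its spread. Under optimized conditions the order was Hvcn1 (72.1 FPKM), Trpv2 (24.8), Kcnj2 (15.3), Kcnk6 (12.2), Kcnk13 (9.78), Trpm7 (7.95), Kcnn4 (5.16), Kcna3 (2.84), Trpv4 (1.58) and Trpm2 (0.857), with overlap of Kcnk13 and Trpm7 only. Thus the first 4 ranks were filled by the same genes, and Kcna3 moved from below Trpm2 to above Trpv4. These orders rest on the gene lengths that the FPKM values carry.

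To set these genes among other channels, 149 further channel genes were listed by family. Of these, 57 were tested, 9 rose and 9 fell, which is 31.6% of those tested beside 29.8% of all genes, and 16 had no count in any library. Most potassium channel genes did not pass the filter on low counts. Only 1 of 12 other two-pore genes was tested, Kcnk7, a two-pore subunit not known to conduct on its own, which fell by 0.51 on the log2 scale (SE 0.12, adjusted p = 0.010). Only 1 of 14 other inward rectifiers was tested, Kcnj10, the glial rectifier typical of astrocytes, which did not pass (0.430, 0.481 and 0.506 FPKM in control, 0.628, 0.462 and 0.417 FPKM in optimized libraries).

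Among 36 other voltage-gated potassium genes and beta subunits, 9 were tested. Kcnh2, the ERG1 channel known from cardiac repolarization, was the one called, with a raw count of 4, 10 and 7 in the control and of 32, 44 and 22 in the optimized libraries and a log2 fold change of 2.39 (SE 0.41, adjusted p = 0.0016). Its level stayed below that of Kcna3, at 0.193 to 0.320 FPKM in optimized libraries. Kcnab2, a beta subunit that binds Kv1 channels, had the highest level of this list and did not pass (log2 fold change -0.21, adjusted p = 0.16). Of the 9 other calcium-activated potassium genes 2 were tested, and Kcnma1, the large-conductance channel, rose from 0.246, 0.228 and 0.230 FPKM to 0.851, 0.703 and 0.763 FPKM. Its log2 fold change was 1.85 (SE 0.12, adjusted p = 3.0e-06), while Kcnn4, at a higher level, did not pass.

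Pacc1, the acid-activated chloride channel listed with the proton channels, fell from 40.6, 42.5 and 40.3 FPKM to 25.2, 27.97 and 29.4 FPKM (log2 fold change -0.44, SE 0.09, adjusted p = 0.0057). Its exons share 953 bases with Ppp2r5a on the opposite strand. Of 24 other TRP genes 7 were tested, none rose and 2 fell. Mcoln2, an endolysosomal cation channel known from immune cells, fell most of all listed channel genes, from 16.6, 17.98 and 17.3 FPKM to 3.95, 3.02 and 3.81 FPKM, a log2 fold change of -2.13 (SE 0.10, adjusted p = 4.3e-07). Trpc4, a receptor-operated channel, fell by 0.84 (SE 0.16, adjusted p = 0.0027). Mcoln1, the lysosomal relative with the highest level of this list, did not pass (25.01 to 27.0 FPKM in control, 25.3 to 28.5 FPKM in optimized libraries).

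Among 14 genes of store-operated calcium entry and internal calcium release, 11 were tested. Of the 3 inositol trisphosphate receptor genes, 1 rose, 1 fell and Itpr2 did not pass (log2 fold change 0.25, adjusted p = 0.20). Itpr3 rose (log2 fold change 0.89, SE 0.17, adjusted p = 0.0031; its exons share 444 bases with Uqcc2 on the opposite strand), Itpr1 fell (log2 fold change -0.69, SE 0.17, adjusted p = 0.012), and the lysosomal channel gene Tpcn1 rose and the calcium sensor gene Stim2 fell as well. Orai1, the pore of store-operated entry and the highest of the list, did not pass (log2 fold change -0.24, adjusted p = 0.22). Of 20 chloride and volume-regulated genes 17 were tested, 4 rose and 3 fell. Clcn2 rose most (log2 fold change 0.92, SE 0.20, adjusted p = 0.0055), from low counts and with exons that overlap Fam131a and Polr2h on the opposite strand, and the endosomal exchanger gene Clcn5 fell most (log2 fold change -0.87, SE 0.17, adjusted p = 0.0029). Clic1, the most abundant of the list at 271 to 293 FPKM in control, did not pass (log2 fold change -0.35, adjusted p = 0.066). Of 15 mechanosensitive and sodium channel genes 7 were tested, and the sodium channel subunit gene Scn3b was called (a raw count of 10 to 19 in control and of 26 to 36 in optimized libraries; log2 fold change 1.26, SE 0.33, adjusted p = 0.016).

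**Figure D4:**
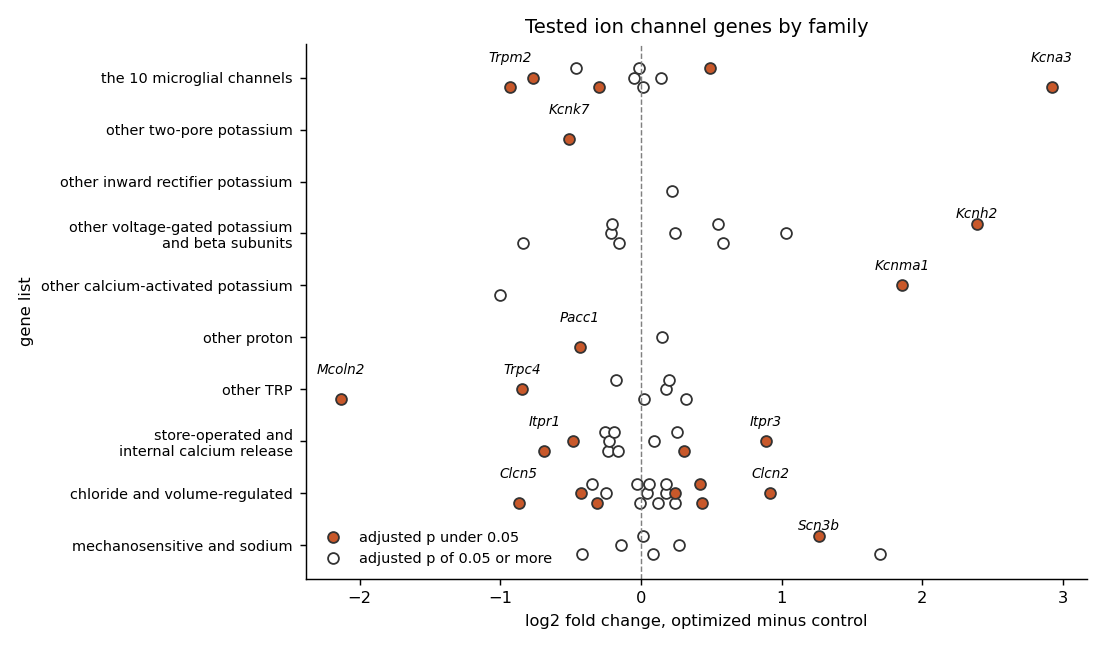
Log2 fold change, optimized minus control, of the 10 channel genes and of the 57 tested further channel genes by family, filled where the adjusted p was under 0.05. The called genes run from -2.13 (Mcoln2) to 2.92 (Kcna3).

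The last group were 16 partner genes whose products act with these channels, all of which were tested: 3 rose (among them P2ry12 and Ncf1), 7 fell (among them Cybb, Ncf4, Nlrp3 and P2rx4) and 6 did not pass. The called genes were 62.5% of this list, beside 29.8% of all tested genes, and the list was chosen with earlier results of these data known. P2ry12, the ADP receptor known to enhance THIK-1 current, went from 5.93, 5.77 and 5.44 FPKM to 14.3, 15.5 and 14.0 FPKM (log2 fold change 1.497, SE 0.10, adjusted p = 3.2e-06). The ratio of Kcnk13 to P2ry12 FPKM within a library went from 1.34 ± 0.0433 to 0.673 ± 0.0654 (± SD over 3 libraries per group). Nlrp3, the inflammasome sensor downstream of potassium outflow, fell by 1.01 on the log2 scale (SE 0.08, adjusted p = 1.1e-05). The ATP-gated channel gene P2rx4 fell by 0.66 (SE 0.10, adjusted p = 0.00065), while P2rx7, which opens the outflow route linked with Kcnk6, did not pass (log2 fold change -0.07, adjusted p = 0.52). Calm3, a gene of the calmodulin that KCa3.1 binds, fell by 0.38 on the log2 scale (adjusted p = 0.047). Among oxidase subunits Ncf1 rose by 0.59 and Ncf4 fell by 1.05, and Cyba, the most abundant partner, did not pass (log2 fold change -0.25, adjusted p = 0.33).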

How the data were processed

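RNA was sequenced in paired ends from 3 control and 3 optimized cultures. Per the study's methods and the submitters' processing notes, reads were mapped to mm39 (GRCm39) with HISAT2 and counted per gene with featureCounts; versions, annotation and strand setting are not given in the sources used here. The authors deposited raw read counts per gene and FPKM values (fragments scaled to gene length and library size) for the same libraries. No column went unused for want of a sample.

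Counts were tested with edgeR 4.0.16 in R 4.3.3 (TMM scaling, its filter on low counts, quasi-likelihood test, Benjamini-Hochberg adjustment over 14618 genes, threshold 0.05). The group was the only term. The common dispersion gave a coefficient of variation of 0.128 between replicates. With 3 libraries a group no exact permutation test of a single value can go below p = 0.1, so none is given. Alternatives were DESeq2 1.42.0, limma 3.58.1 on log2(FPKM + 1) and log2(FPKM + 0.1), other scalings and filters, a replicate block, and each library left out. Coordinates and exon overlaps come from GENCODE M39, and start windows from RefSeq (GRCm38.p6 table, matched letter for letter in GRCm39). No 2 replicates were copies of each other.

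The 10 members, the other channel, partner and marker lists and the tests were chosen with earlier results of these data known. From each further list, the called gene with the highest and that with the lowest log2 fold change, and the gene with the highest mean FPKM, were named; the other genes named from lists were chosen after their values were seen. A few genes that the rule or the lists would name are not reported here.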

Additional observations from a re-analysis of the deposited data

How the results depend on the processing

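Kcnk13, Kcnj2, Kcna3 and Trpm2 were called with the same sign in all 15 alternative fits, over log2 fold changes of 0.32 to 0.53, -0.92 to -0.68, 1.397 to 3.13 and -1.06 to -0.59. The smallest value for Kcna3 came from limma on log2(FPKM + 1), where the pseudocount exceeds the control level. Trpv2 was called in 11 and Trpv4 in 5 of the 15, while Kcnk6, Kcnn4, Hvcn1 and Trpm7 were called in none. Hvcn1 (-0.0004 to 0.21), Kcnn4 (-0.16 to 0.04) and Trpm7 (-0.16 to 0.13) changed sign among fits. The limma fits called 1307 of all genes higher with a pseudocount of 1, 1312 with one of 0.1, and 1176 after genes under a mean of 1 FPKM were dropped, where edgeR called 2142. Of the other channel genes, 4, 2 and 2 were called higher in those 3 fits against 9, and 15 (library size alone) and 14 (the fit without genes under 1 FPKM) were called lower against 9. With 1 library left out, 5 to 10 of them were called higher, the lowest without control replicate 2. The labels do not say whether equal replicate numbers mark a shared culture or litter, and 3 libraries a group are too few to decide it. Same-numbered libraries deviated together with correlations of 0.40, -0.03 and 0.24, and libraries of unlike number with correlations from -0.43 to 0.34. The replicate block gave 4924 called genes against 4360, and changed the call of none of the 10 channel genes. Low counts limit Kcna3 in control and Kcnh2, Scn3b and Clcn2 throughout.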
